A study of Mus musculus with 6 samples.

Results

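TGF-beta, BMP and activin signalling was followed through its ligands, receptors, Smad proteins and secreted modulators in 3 mouse RNA samples. The members were all genes whose symbol in the platform annotation starts with Bmp, Bmpr, Tgfb, Tgfbr, Smad, Acvr, Gdf or Inhb followed by a digit or letter, together with Inha, Amh, Amhr2 and Nog. The rule found 53 genes on 59 probes, of 18545 named genes on 20924 probes. Of the 53, 49 act in the pathway or are secreted modulators of it, and 4 (Bmp2k, Tgfb1i1, Tgfbi and Tgfbrap1) were included for their names. Another probe was annotated to Acvr2a together with Orc4 and was not used.

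The RNAs came from testis, from epididymis and from the stromal-vascular fraction (SVF) of fat, which holds its cells other than adipocytes. Each tissue is 1 total RNA sample, and each pair of tissues was hybridised on 2 two-colour arrays with Cy3 and Cy5 exchanged, giving 6 arrays. The sources used here give no strain, age or number of animals and name no genotype or treatment. A value below is a log2 ratio with the first-named tissue on top, given as the mean of 2 arrays ± SD (n = 2 hybridisations), and array 1 of a pair carries the first-named tissue in Cy5. Since the SD reflects labelling and hybridisation and no spread between animals, tissues were compared by size alone, with no test. By the size rule used throughout, a gene is higher in a tissue where both arrays of the pair show a ratio of at least 1 log2 unit (2-fold) toward it. The direction of the ratio (Cy5 over Cy3) is likely rather than stated, resting on the titles, the dye labels and late spermatid markers that lie higher in testis, and reading the deposited logarithms as base 2 is a convention on which all folds rest.

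As deposited, the 2 arrays of a pair correlated across all 25344 probes with Pearson's r of -0.86, -0.64 and -0.77 for testis and SVF, epididymis and SVF, and epididymis and testis. Medians of the 6 columns lay between 0.005 and 0.11. The median SD of a gene between its 2 arrays was 0.33, 0.37 and 0.35 in the same order. Of the markers set out for the tissues, testis exceeded SVF in 8 of 8 for late spermatids and 5 of 5 measured for Leydig cells, epididymis exceeded SVF in 8 of 8 for epididymal epithelium, and SVF exceeded testis in 7 of 7 measured for mesenchymal progenitors. Sertoli cell markers were less clear, with 2 of 8 higher in testis than in SVF. Late spermatid markers were also higher in epididymis than in SVF for 7 of 8 genes, while none of the 5 Leydig cell markers was.

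The pathway works by relay. Dimeric ligands of the TGF-beta, BMP, GDF and activin groups bring together type II and type I receptor kinases on the cell surface. The type I kinase phosphorylates receptor-regulated Smads, Smad2 and Smad3 for TGF-beta and activin and Smad1, Smad5 and Smad9 for BMPs, which enter the nucleus with Smad4. Smad6 restrains the BMP arm, and secreted proteins such as noggin hold BMPs away from their receptors. In the gonads inhibin opposes activin, and anti-Müllerian hormone (AMH) signals through its own receptor, and in fat BMPs and TGF-betas act on the progenitors of adipocytes.

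The stretches printed next are the 250 bases before the annotated start of the pathway members with the largest ratios between testis and SVF, Amhr2 and Inha toward testis and Gdf10 and Bmper toward SVF. They come from RefSeq on GRCm38.p6, all on the plus strand, at chr15:102445117-102445366 for Amhr2, chr1:75507359-75507608 for Inha, chr14:33923337-33923586 for Gdf10 and chr9:23222826-23223075 for Bmper. The array annotation names no build, so these positions belong to RefSeq alone. Whether an annotated start is the main start of transcription was not checked. The first part of the Inha window reads as a run of codons without a stop, so that window may lie inside the gene. Capitals mark the letters AAGGTCA, the half-site bound by the steroidogenic factor SF-1.
Amhr2: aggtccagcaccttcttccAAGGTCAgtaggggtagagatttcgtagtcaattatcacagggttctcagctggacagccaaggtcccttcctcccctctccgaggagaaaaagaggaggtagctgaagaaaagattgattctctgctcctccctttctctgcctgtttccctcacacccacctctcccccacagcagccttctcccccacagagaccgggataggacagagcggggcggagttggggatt
Inha: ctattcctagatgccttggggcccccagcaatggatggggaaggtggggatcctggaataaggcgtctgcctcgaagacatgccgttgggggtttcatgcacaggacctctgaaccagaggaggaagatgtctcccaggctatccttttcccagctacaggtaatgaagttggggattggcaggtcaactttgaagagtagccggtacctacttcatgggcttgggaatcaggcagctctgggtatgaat
Gdf10: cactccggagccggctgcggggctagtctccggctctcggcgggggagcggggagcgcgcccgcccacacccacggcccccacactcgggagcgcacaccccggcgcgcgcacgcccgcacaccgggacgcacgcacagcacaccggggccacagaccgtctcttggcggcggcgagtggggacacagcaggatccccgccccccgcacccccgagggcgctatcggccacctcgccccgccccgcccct
Bmper: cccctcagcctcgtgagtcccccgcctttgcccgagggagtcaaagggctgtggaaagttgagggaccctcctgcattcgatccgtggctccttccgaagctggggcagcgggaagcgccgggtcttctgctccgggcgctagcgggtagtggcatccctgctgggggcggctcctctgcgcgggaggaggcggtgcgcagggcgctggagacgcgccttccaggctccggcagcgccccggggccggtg

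In these windows the SF-1 half-site AAGGTCA, searched on both strands, was found in Amhr2 alone among 37 members with a promoter entry, starting 231 bases before the annotated start, and 4.08% of all 32851 windows held it. The cyclic AMP response element TGACGTCA was in no member's window, against 1.55% of all windows. The GC-rich element GGCGCC was in 8 members (Bmp2k, Bmpr1a, Bmpr2, Smad5, Smad9, Tgfbi, Tgfbr1 and Tgfbrap1) and in 9.59% of all windows, and the paired Smad box GTCTAGAC in no member and 0.167% of all windows. The core TATAAA was in 6 members (Bmp15, Bmpr1b, Gdf11, Gdf2, Inhba and Tgfb2) and in 12.4% of all windows. A member was counted where any of its windows held the letters, while the share is of single windows, so the 2 are in unlike units. A match is only a run of letters, and a window without it says nothing of the factor. GC content was 78.8% for Gdf10 and 71.6% for Bmper, against 55.2% for Amhr2 and 53.6% for Inha, whose window may lie inside the gene. The median was 64.6% over the members' 44 windows and 52.4% over all windows.

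Of the 53 members, 25 (47.2%) met the size rule in at least 1 comparison, close to 47.1% of all named genes. The other 28 had means between -1.18 (Gdf6) and 1.37 (Bmp15), both for epididymis over testis. For testis against SVF, 4 members were higher in testis (background 20.7% of named genes) and 14 were higher in SVF (background 16.0%), with a median over the members of -0.60 against 0.00 over all genes. For epididymis against SVF, 5 members were higher in epididymis (background 10.2%) and 9 in SVF (background 8.68%), with medians of -0.14 and 0.07. For epididymis against testis, 8 were higher in epididymis (background 14.3%) and 3 in testis (background 18.0%), with medians of 0.65 and 0.00. The rule asks both arrays to pass, and on 1 array alone 7 to 13 members were higher in epididymis than in SVF, and 17 to 18 higher in epididymis and 4 to 9 in testis between those tissues. For testis against SVF 1 array alone gave 4 to 7 toward testis and 16 to 24 toward SVF. Against epididymis it gave 11 to 14 toward SVF. Each pair of comparisons shares the RNA of a tissue. The members were picked by name, with earlier results of these data known, and no count here is a test of the pathway.

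Tgfb1, Tgfb2 and Tgfb3 encode the TGF-beta ligands, which are secreted in latent form. Tgfb3 had ratios of -2.32 and -2.41 for testis over SVF and of -1.86 and -2.13 for epididymis over SVF. It was thus 5.15-fold higher in SVF than in testis (-2.37 ± 0.06) and 4.0-fold higher than in epididymis (-2.0 ± 0.19), with all 4 arrays on the same side. Tgfb1, the most widely made ligand of the group, was 2.71-fold higher in SVF than in testis (-1.38 and -1.50 on the arrays) and stood at 0.55 and -0.09 for epididymis over SVF. Against testis, Tgfb1 in epididymis reached 1.77 on array 1 and 0.55 on array 2, short of the rule. Tgfb2 met it in no comparison, and its largest ratio was 1.22 ± 0.84 for epididymis over testis.

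Among 10 BMP ligand genes, testis showed less Bmp4 and Bmp6 than SVF, and no BMP gene met the rule toward testis. Bmp6, which in the liver drives the iron hormone hepcidin, had -2.03 and -2.74 for testis over SVF and -2.24 and -2.14 for epididymis over SVF. These make it 5.22-fold and 4.57-fold higher in SVF. Bmp4, a ligand known to commit stem cells to the adipocyte lineage, had -2.12 and -1.26 for testis over SVF, a 3.23-fold difference, and -0.79 and -0.39 for epididymis over SVF. The 2 BMPs thus shared a direction, and only for Bmp6 did both comparisons with SVF meet the rule.

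Bmp3 and Bmp7 were higher in epididymis. Bmp3, an unusual BMP that dampens osteogenic BMP signals, had 1.61 and 1.81 for epididymis over SVF (3.27-fold) and 1.64 and 3.75 for epididymis over testis (2.69 ± 1.49, 6.47-fold). It was the single member higher in epididymis than in both other tissues, as were 4.34% of all named genes, although the arrays against testis differed by more than 2 log2 units. Bmp7, needed for kidney and eye formation, was 3.05-fold higher in epididymis than in testis (1.34 and 1.88), and had 0.72 and 1.70 over SVF. Bmp2, Bmp5, Bmp8b, Bmp10 and Bmp15 met the rule nowhere. Bmp2 had -2.34 on array 1 and 0.30 on array 2 for testis over SVF, so its arrays did not share a sign. Bmp15, the X-linked oocyte factor, had the highest mean among members that met no rule, 1.37 ± 1.38 for epididymis over testis.

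Gdf10, also called BMP3b, had the largest ratio of all members. Testis over SVF was -6.19 and -6.90 on the arrays, a 93.4-fold higher level in SVF (-6.55 ± 0.50). Epididymis over SVF was -3.56 and -5.17, or 20.6-fold (-4.36 ± 1.14), and epididymis over testis was 3.88 and 2.99, or 10.8-fold (3.44 ± 0.63). The 3 tissues were therefore ordered SVF, epididymis, testis on every array that compared them. Its ratios do not close exactly, since the sum of testis over SVF and epididymis over testis exceeds epididymis over SVF by 1.25 log2 units.

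Gdf9, best known as the growth factor by which oocytes direct granulosa cells, ran the other way. It had 1.79 and 1.25 for testis over SVF (2.87-fold higher in testis), -2.73 and -3.92 for epididymis over testis (-3.32 ± 0.84, higher in testis) and -1.10 and -1.42 for epididymis over SVF (2.40-fold higher in SVF). Gdf9 was the single member lower in epididymis than in both other tissues, as were 0.927% of all named genes. Of 8 late spermatid markers, 7 met the rule toward epididymis against SVF, the side opposite to Gdf9. Between epididymis and testis, 6 of these 8 met it toward testis, the same side as Gdf9 (median -2.62 for epididymis over testis). These markers do not cover other germ cells. How far germ cell content bears on the Gdf9 ratios was not tested. Gdf3, a ligand of embryonic stem cells and fat, was 2.72-fold higher in SVF than in testis (-1.73 and -1.16). Gdf2, Gdf5, Gdf6, Gdf7 and Gdf11 met the rule nowhere, and Gdf6 had the largest mean among them, with -1.56 and -0.80 for epididymis over testis.

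**Figure D1:**
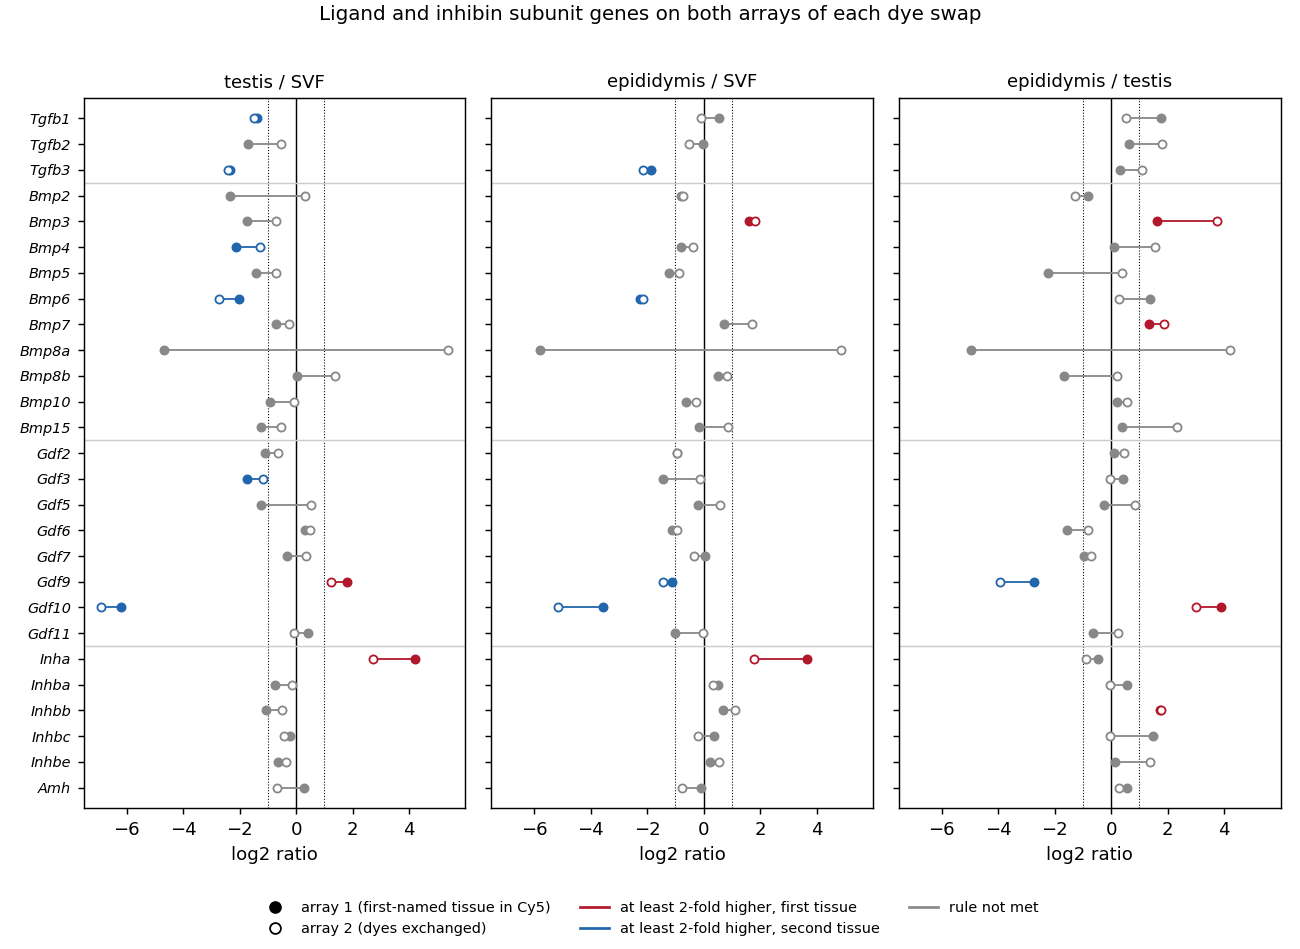
Log2 ratios of the 27 ligand and inhibin subunit genes in the 3 comparisons, with filled points for array 1, open points for array 2, dotted lines at 2-fold, and red or blue where both arrays passed it toward the first or the second tissue. Apart from Bmp8a, Gdf10 lies farthest left in both comparisons with SVF and Inha farthest right for testis over SVF, and the 2 points of Bmp8a lie on opposite sides in all 3 panels.

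Inha encodes the alpha subunit that turns activin beta chains into inhibin, the gonadal hormone that lowers FSH. It had 4.23 and 2.71 for testis over SVF (11.1-fold higher in testis, 3.47 ± 1.07) and 3.67 and 1.78 for epididymis over SVF (6.61-fold higher in epididymis, 2.72 ± 1.33). Epididymis over testis was -0.48 and -0.89, within 2-fold. In both comparisons with SVF the array with SVF in Cy3 gave the larger ratio. The beta subunit genes behaved differently. Inhbb was 3.37-fold higher in epididymis than in testis (1.73 and 1.78), with 0.69 and 1.13 for epididymis over SVF and -1.05 and -0.51 for testis over SVF. Inhba, Inhbc and Inhbe met the rule nowhere. Amh, the hormone of fetal and immature Sertoli cells, had 0.28 and -0.69 for testis over SVF and no ratio past 2-fold on any of the 6 arrays.

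Amhr2, the type II receptor of AMH, known in Sertoli and Leydig cells, had 4.91 and 5.11 for testis over SVF, which is 32.3-fold higher in testis (5.01 ± 0.14). It had -2.82 and -3.82 for epididymis over testis (9.99-fold higher in testis) and 1.30 and 2.08 for epididymis over SVF (3.23-fold higher in epididymis). Its ratios closed to 0.00 log2 units around the loop, and the order testis, epididymis, SVF held on every array. The ligand and its receptor thus differed, since Amh met the rule nowhere. Leydig cell markers were higher in testis than in SVF for 5 of 5 genes and in none of 5 in epididymis against SVF. Sertoli cell markers were higher in testis than in SVF for 2 of 8 genes. Of these 8, 3 were higher in epididymis than in SVF and 1 was higher in SVF. The part of cell content in the Amhr2 ratios was not tested.

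Tgfbr1, the type I receptor of TGF-beta, also exceeded both other tissues in testis. It had 1.68 and 3.02 over SVF (5.10-fold, 2.35 ± 0.95), and epididymis over testis was -2.14 and -2.16 (4.44-fold higher in testis, -2.15 ± 0.02). Epididymis and SVF were within 2-fold (0.09 and 0.45). Its partners lay on the opposite side. Tgfbr2, the type II receptor that binds TGF-beta first, was 4.03-fold higher in SVF than in testis (-1.81 and -2.21), and Tgfbr3, the co-receptor betaglycan that presents TGF-beta2 and inhibin, was 3.71-fold higher (-1.84 and -1.95). Against epididymis the 2 genes were 2.99-fold and 2.44-fold higher in SVF. Both of these gene values average probes that disagree, as set out further on.

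Acvrl1, the type I receptor of endothelial cells for BMP9 and BMP10, was 4.30-fold higher in SVF than in testis (-1.45 and -2.76) and 4.78-fold higher in SVF than in epididymis (-1.81 and -2.70). Epididymis and testis did not differ by the rule (-0.69 and 0.16). Endothelial markers were higher in SVF for 4 of 7 genes against testis and 4 of 7 against epididymis, with medians of -1.61 and -2.0, and none of 7 differed by the rule between epididymis and testis. The part of endothelial content in the Acvrl1 ratio was not tested. In RNA of whole tissues, fewer cells of a type and less RNA per cell cannot be told apart.

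Bmpr2, the type II receptor of BMPs, was lower in testis than in both other tissues by the mean of its 2 probes. Testis over SVF was -2.29 and -2.54 (5.33-fold higher in SVF, -2.41 ± 0.18), and epididymis over testis was 1.99 and 1.70 (3.59-fold higher in epididymis). Epididymis over SVF was -0.61 and -0.80, within 2-fold. Among type I receptors, Acvr1 and Acvr1c were higher in epididymis than in testis by 2.73-fold (1.5 and 1.40) and 3.58-fold (1.78 and 1.9). Acvr1c encodes ALK7, a receptor of activin B, whose subunit gene Inhbb was on the same side in that comparison. Bmpr1b was 2.41-fold higher in epididymis than in SVF directly (1.23 and 1.32), yet its loop sum missed 0 by -1.26, and the least-squares estimate from all 6 arrays was 0.85. Bmpr1a came just under the rule in that comparison, with 0.99 and 1.60. Acvr1b and Acvr2b, receptors of activin, met it nowhere.

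Of 7 measured Smad genes, 3 met the rule in at least 1 comparison, as did 47.1% of all named genes. Smad3, which carries TGF-beta and activin signals, was lowest in testis. It was 3.54-fold higher in SVF than in testis (-2.27 and -1.38) and 4.91-fold higher in epididymis than in testis (2.26 and 2.34), while epididymis over SVF was 0.32 and 1.02. Its close relative Smad2 had -0.96 and -1.36 for testis over SVF, just outside the rule. Smad6, the inhibitory Smad of the BMP arm, was 2.56-fold higher in SVF than in testis (-1.10 and -1.62). Smad1, a BMP Smad, was 2.57-fold higher in epididymis than in SVF (1.01 and 1.72), with array 1 barely past 2-fold. Smad4, Smad5 and Smad9 met the rule nowhere.

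Bmper, a secreted protein that binds BMPs and modulates them in vessels, was 11.9-fold higher in SVF than in testis (-3.49 and -3.65) and 14.0-fold higher in SVF than in epididymis (-3.87 and -3.75). All 4 arrays were on the same side and close to each other. The antagonist gene Nog met the rule nowhere, with 1.42 and 0.83 for epididymis over testis. Bmp1, a protease that cleaves procollagen and the BMP antagonist chordin and is no BMP ligand, had -1.18 and -0.99 for testis over SVF, just outside the rule. Of the 4 genes included for their names, Tgfbi encodes a matrix protein induced by TGF-beta. It was 12.2-fold higher in SVF than in testis (-3.34 and -3.88) and 12.7-fold higher in SVF than in epididymis (-2.89 and -4.44). The focal adhesion gene Tgfb1i1, the kinase gene Bmp2k and the trafficking gene Tgfbrap1 met it nowhere.

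**Figure D2:**
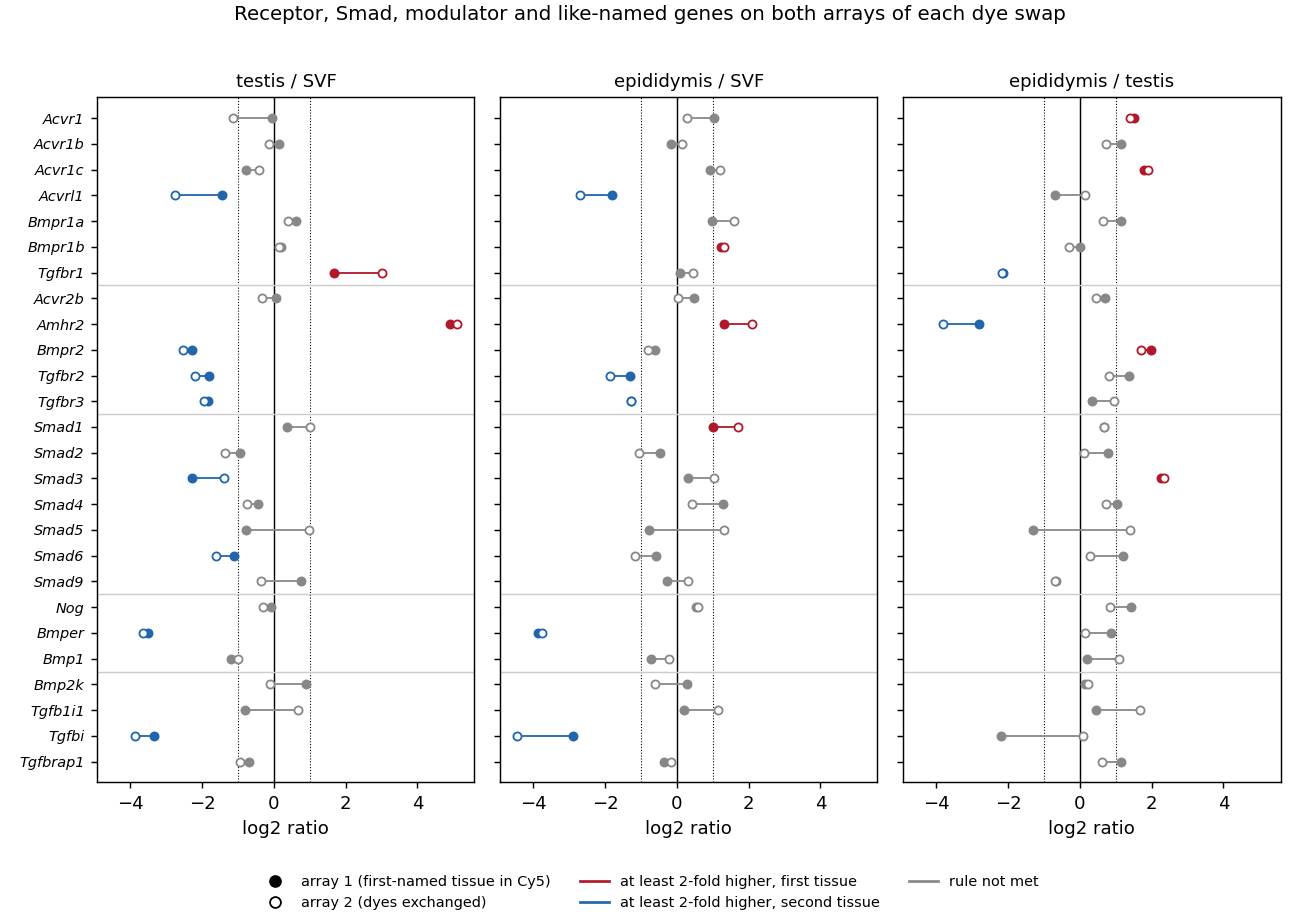
Log2 ratios of the 26 receptor, Smad, modulator and like-named genes in the 3 comparisons, drawn as in the plot of ligands. Amhr2 and Tgfbr1 lie to the right for testis over SVF and to the left for epididymis over testis, and Acvrl1, Tgfbr2, Tgfbr3, Bmper and Tgfbi lie to the left in both comparisons with SVF.

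By the rule, 8 members were higher in SVF than in both other tissues: Tgfb3, Bmp6, Gdf10, Acvrl1, Tgfbr2, Tgfbr3, Bmper and Tgfbi. Of all named genes 6.95% did so. With the other probe of Tgfbr2 or Tgfbr3 that gene would not be among the 8. Mesenchymal progenitor markers were higher in SVF for 7 of 7 genes against testis and 4 of 7 against epididymis (medians -3.57 and -1.92), and macrophage markers for 6 of 6 in both (medians -4.46 and -3.32). Adipocyte markers were higher in SVF for 4 of 6 against testis (Fabp4 by 35.2-fold, Cidec by 8.42-fold, Lep by 4.36-fold and Adipoq by 2.32-fold), while Lipe was higher in testis, and for 2 of 6 (Fabp4 and Cidec) against epididymis. The part of this cell content in the 8 ratios was not tested. Gdf9, Tgfbr1 and Amhr2 were higher in testis than in both others (15.6% of all genes), and Gdf10, Bmpr2 and Smad3 were lower in testis than in both (7.97%). With probe 1 alone Bmpr2 would not be among the latter. Inha and Amhr2 were lower in SVF than in both (4.99%). Between epididymis and testis, markers of epididymal epithelium (8 of 8), mesenchymal progenitors (6 of 7), smooth muscle (5 of 6) and macrophages (4 of 6) were higher in epididymis, and late spermatid (6 of 8) and Leydig cell markers (4 of 5) were higher in testis. Of 8 Sertoli cell markers, 3 were higher in testis and 1 in epididymis. The part of these cell types in the members' ratios was not tested.

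A least-squares fit over all 6 arrays placed 34 of 53 members (64.2%) lowest in testis, against 39.6% of all named genes. It placed 21 members highest in epididymis and 21 highest in SVF (39.6% each), against 27.9% and 31.9% of all named genes. For testis the figures were 11 members (20.8%) and 40.2% of all genes. These ranks ignore the size of the gaps, and 28 members met the size rule in no comparison.

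Members with more than 1 probe showed how far a value depends on the probe. Of the 6 such genes, the probes of Tgfbr2 lay farthest apart for testis over SVF, those of Tgfbr3 for epididymis over SVF and those of Bmp5 for epididymis over testis. Probe 1 of Tgfbr2 had -3.72 and -4.34 for testis over SVF, -2.88 and -3.57 for epididymis over SVF and 2.47 and 1.91 for epididymis over testis. Probe 2 of Tgfbr2, annotated to the same transcript, stayed between -0.27 and 0.29 on all 6 arrays. Tgfbr3 split likewise in the comparisons with SVF, where probe 2 had -3.15 and -3.05 against testis and -3.11 and -2.77 against epididymis, while probe 1 had -0.53 and -0.84 against testis and 0.54 and 0.19 against epididymis. For Bmpr2, probe 1 had a mean of -1.55 and probe 2 of -3.28 for testis over SVF, the same direction. For epididymis over testis probe 1 of Bmpr2 had 1.24 and 0.96, short of the rule, and probe 2 had 2.74 and 2.45. Bmp1 had 1 probe past the rule toward SVF in both comparisons with SVF, although the gene mean was not, and probe 2 of Tgfbrap1 passed it for epididymis over testis (1.21 and 1.10) where its gene mean did not. Bmp5 had -4.58 on array 1 and 0.44 on array 2 at its probe 2 for epididymis over testis.

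**Figure D3:**
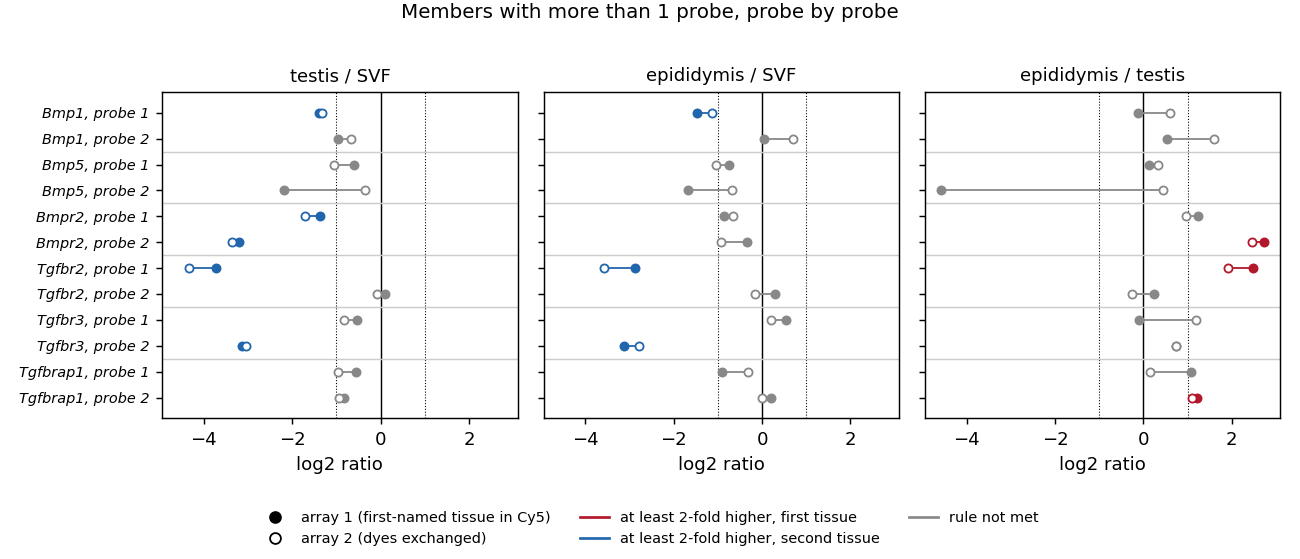
Log2 ratios of the 12 probes of the 6 members with more than 1 probe, drawn as in the plot of ligands. Probe 1 of Tgfbr2 and probe 2 of Tgfbr3 lie near -3 or below in both comparisons with SVF, while the other probe of each gene lies within 1 log2 unit of 0.

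Bmp8a, a BMP ligand known for its part in spermatogenesis, had ratios that followed the dye rather than the tissue. As deposited (Cy5 over Cy3), all 6 arrays lay between -5.80 and -4.20, whichever tissue carried which dye. With tissues set the same way up, the means were 0.35 ± 7.12, -0.46 ± 7.54 and -0.38 ± 6.49 in the order of the comparisons. A dye effect that is equal on both arrays cancels in such a mean and stays in the SD, and none of the 3 means reached 2-fold. Of 25344 probes this was the single one at least 16-fold toward 1 dye on all 6 arrays, and 58 probes (0.229%) were at least 2-fold. Smad5, between -1.40 and -0.77 as deposited, had 1 sign on all 6 arrays too, as did Gdf5 and probe 2 of Tgfbr2. In all, 4 of 59 member probes did so, beside 1952 of all 25344 probes. The means of Smad5 were 0.10 ± 1.23, 0.27 ± 1.48 and 0.05 ± 1.91, all within 2-fold.

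**Figure D4:**
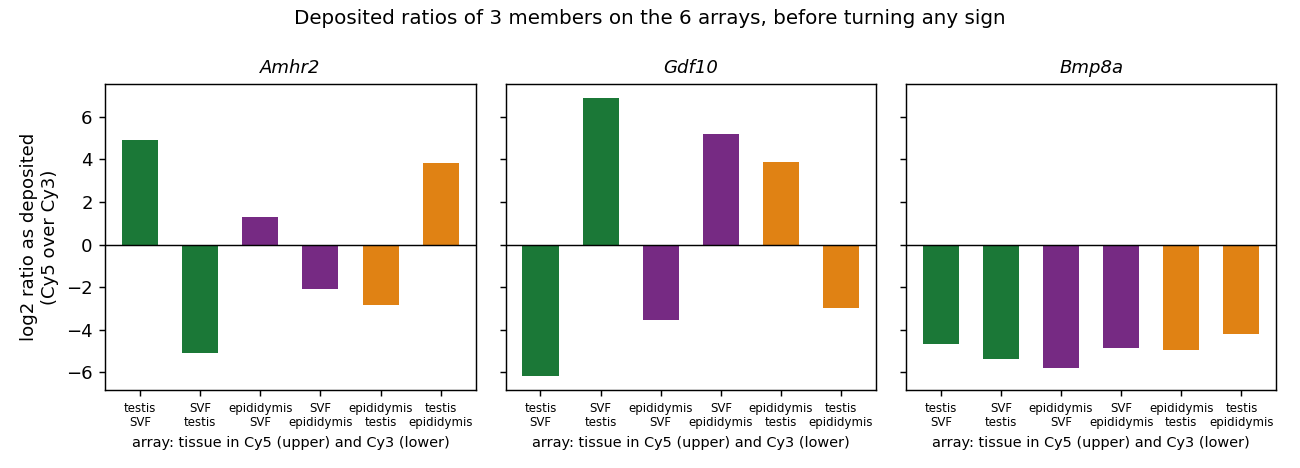
Deposited log2 ratios (Cy5 over Cy3) of Amhr2, Gdf10 and Bmp8a on the 6 arrays, 1 bar each, with the Cy5 tissue named above the Cy3 tissue and 1 colour for each dye swap. Bars of Amhr2 and Gdf10 change sign when the dyes are exchanged, and those of Bmp8a stay between -5.80 and -4.20.

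Other genes of the pathway were taken as 5 lists with 72 entries, of which 66 were measured. For testis against SVF 6 met the rule toward testis and 25 toward SVF (median -0.51), where 20.7% and 16.0% of all named genes did. For epididymis against SVF 4 met the rule toward epididymis and 13 toward SVF (median -0.28), where 10.2% and 8.68% of all genes did. For epididymis against testis 18 were higher in epididymis and 6 in testis (median 0.19), where 14.3% and 18.0% of all genes were. The same shares of all genes stand behind each list's counts. Of 15 extracellular antagonists and modulators, 7 were higher in epididymis than in testis and none in testis (median 0.87), beside 14.3% and 18.0% of all genes. Sost, the sclerostin gene known from bone as an inhibitor of WNT and BMP signals, was 66.1-fold higher in epididymis than in SVF (6.05 ± 0.83) and 39.5-fold higher than in testis (5.30 ± 0.35). The chordin-like gene Chrdl2 was 13.4-fold and 22.6-fold higher in epididymis, and its relative Chrdl1 7.94-fold higher than in testis. Toward SVF, 6 of the 15 were higher than in testis. Fstl1 was 16.6-fold higher (-4.05 ± 0.73), with the BMP binders Nbl1 at -3.05 ± 0.74 and Twsg1 at -2.86 ± 0.77, and Fstl1 was also 10.2-fold higher in SVF than in epididymis.

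Of 13 genes of latency and activation, which store TGF-beta in the matrix and release it, 2 met the rule toward testis and 6 toward SVF (median -0.90 for testis over SVF), beside 20.7% and 16.0% of all genes. The matrix proteoglycan gene Dcn, also on the mesenchymal marker list, was 32.7-fold higher in SVF and the latent binding protein gene Ltbp1 14.7-fold higher, while the proprotein convertase gene Pcsk6 was 11.1-fold higher in testis. Against epididymis 5 of 13 were higher in SVF, with Dcn at -3.39 ± 0.46, Ltbp1 at -2.67 ± 0.27 and Ltbp4 at -2.29 ± 0.10, and 1 (Ltbp2) was higher in epididymis. For epididymis over testis, 8 of 13 were higher in epididymis and 2 in testis (median 1.77), with Ltbp3 at 3.18 ± 0.34, Dcn at 3.07 ± 0.16 and Pcsk6 at -3.30 ± 0.50.

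Of 16 intracellular regulators, 2 met the rule toward testis and 4 toward SVF (median 0.20 for testis over SVF), beside 20.7% and 16.0% of all genes. The ubiquitin ligase gene Smurf1, whose product degrades BMP Smads, was 5.17-fold higher in testis, and Nedd4l and the corepressor gene Ski were 4.39-fold and 3.17-fold higher in SVF. Against SVF, Pmepa1 alone was higher in epididymis (1.03 ± 0.02). For epididymis over testis 2 were higher in each tissue, with Nedd4l at 3.03 ± 0.59, Ski at 1.68 ± 0.06 and Smurf1 at -1.61 ± 0.43. Among 13 response genes, 2 met the rule toward testis and 6 toward SVF (median -1.29 for testis over SVF), beside 20.7% and 16.0% of all genes. Klf10 was 7.40-fold and Id3 4.58-fold higher in SVF, and Id4, known in spermatogonial stem cells, was 3.84-fold higher in testis. Against epididymis 5 of 13 were higher in SVF and none in epididymis, with Cdkn1a at -2.69 ± 0.47, Klf10 at -2.49 ± 0.04 and Snai1 at -1.97 ± 0.91. Id4 alone differed between epididymis and testis (-2.16 ± 0.01, 4.46-fold higher in testis).

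Among 9 other ligands and co-receptors, the endothelial co-receptor gene Eng was 5.56-fold higher in SVF than in testis and 5.85-fold higher than in epididymis, on the same side as Acvrl1. Lefty2 and the BMP co-receptor gene Rgmb were 3.82-fold and 3.42-fold higher in SVF than in testis, and Rgmb was 4.30-fold higher in epididymis than in testis. Mstn, the myostatin gene, was lower in epididymis than in SVF (-2.13 ± 0.09) and than in testis (-1.59 ± 0.10), and stood at -0.13 ± 0.32 for testis over SVF.

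**Figure D5:**
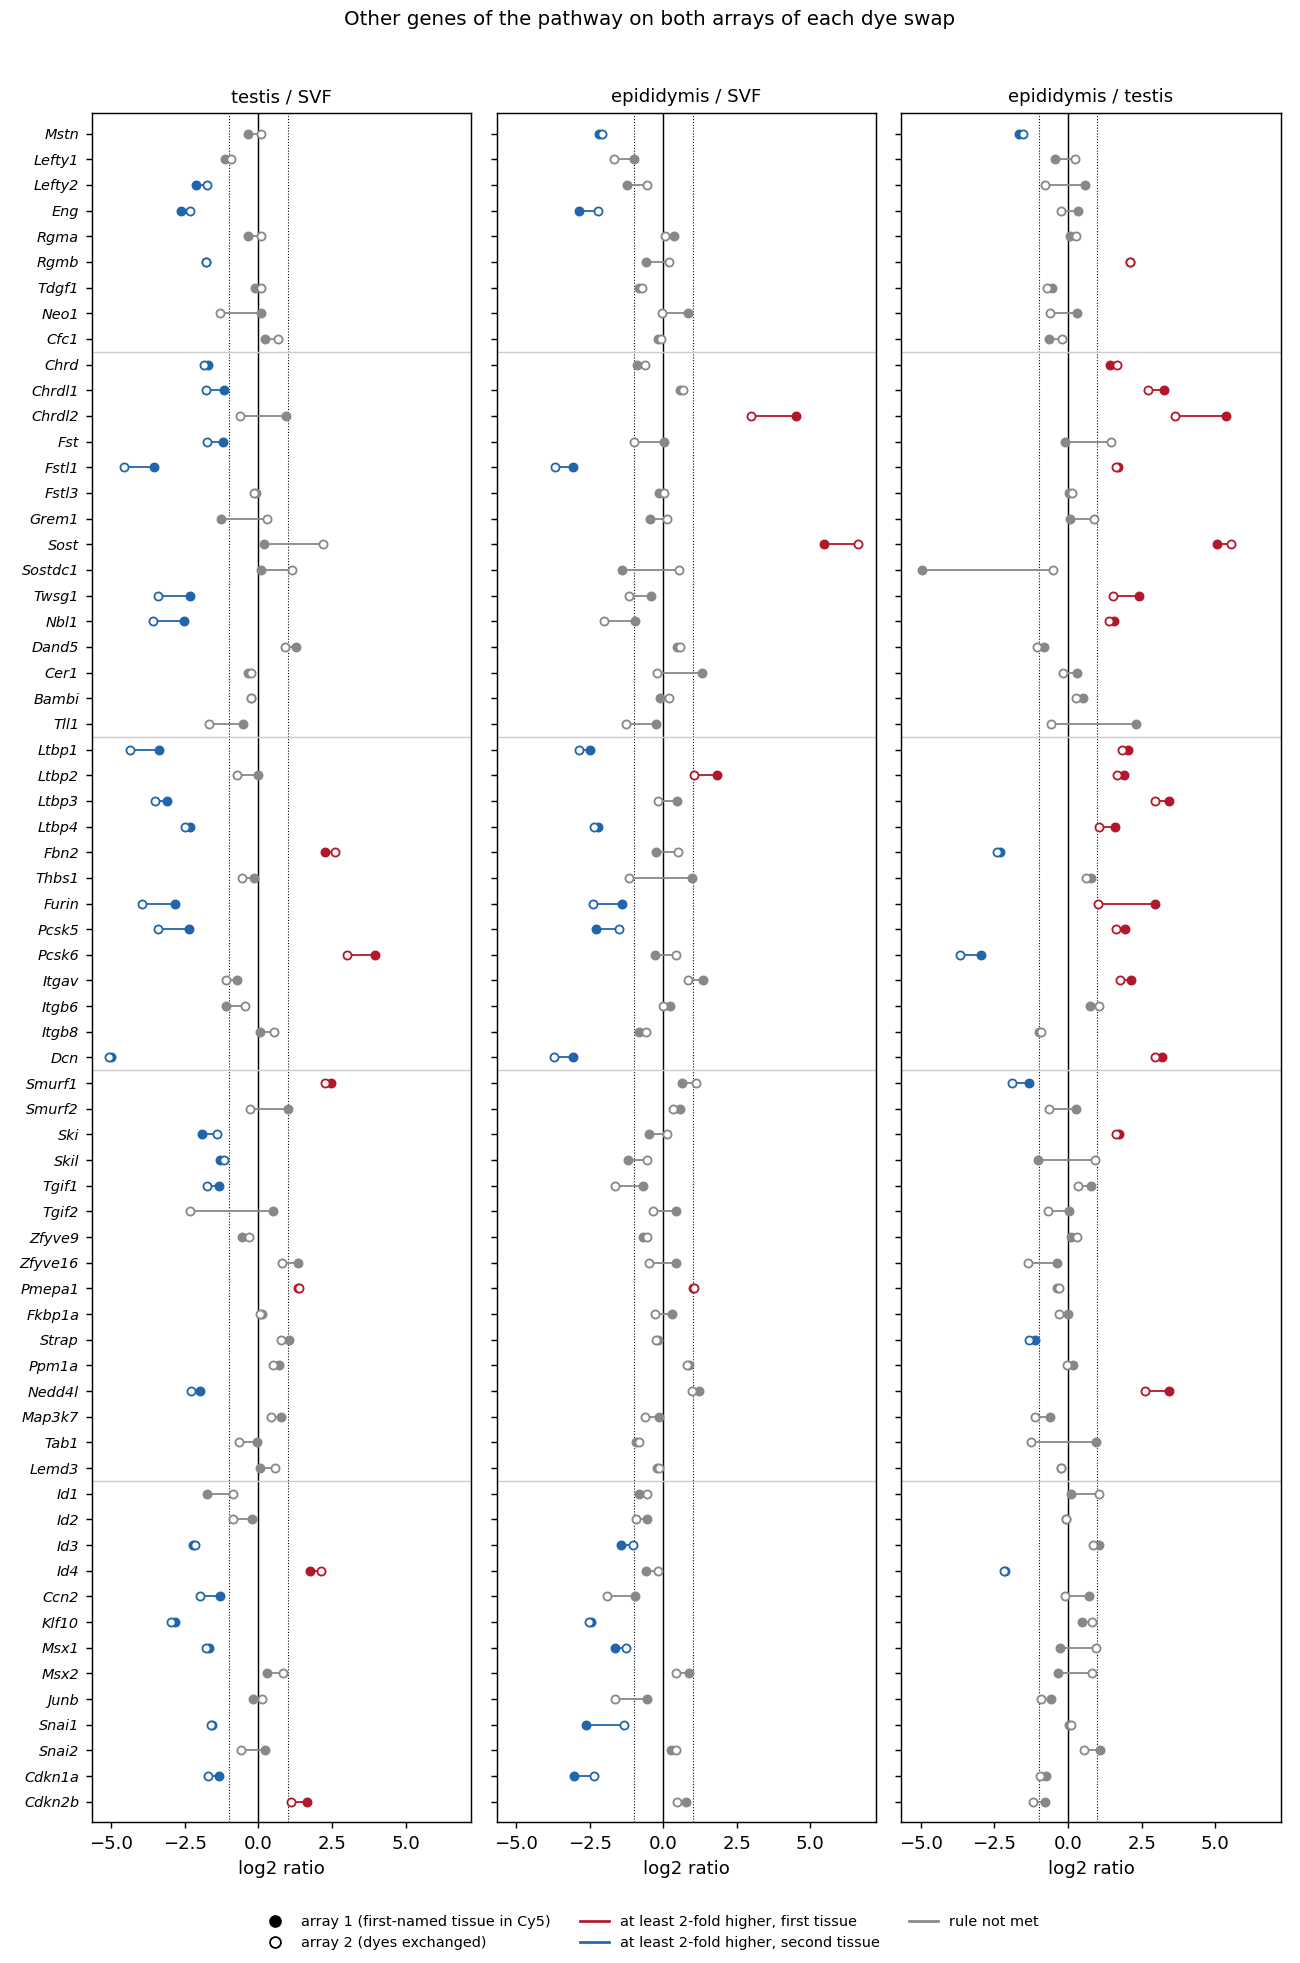
Log2 ratios of the 66 other pathway genes in the 3 comparisons, drawn as in the plot of ligands, with grey lines between the 5 lists. Sost and Chrdl2 lie farthest right in both comparisons that set epididymis on top, and Dcn farthest left for testis over SVF.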

How the data were processed

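The deposited table holds 1 log2 ratio for each of 25344 probes on 6 two-colour arrays, with no missing value. The sources used here do not say how the authors corrected background or normalized, nor the logarithm's base or the ratio's direction. The numerator was taken as Cy5, which each title names first, and the sign of the dye-exchanged array was turned. Probes were named from the platform annotation, by gene ID (20456 probes) or symbol (220) in the GRCm38.p6 gene table. Another 248 kept the annotated symbol, and 158 with non-mouse symbols and 30 with several genes were not named. A gene's value is the mean over its probes. Spot intensities were not used here, so dim probes could not be filtered. Both arrays of a pair carry the same 2 RNAs and count as 1 replicate, and no test was made. The number of arrays limits the precision of a ratio. With 1 RNA sample per tissue, the spread between animals cannot be estimated.

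Every member was accounted for, those meeting the size rule were described with both arrays, and in each further list the 3 largest ratios per comparison meeting the rule were named. Members and lists were chosen with earlier results of these data known. The size rule and the loop fit were tested on simulated data with independent noise at the median SD of each comparison. The simulation held no dye bias and no probes that disagree, so it cannot show how the rule behaves on those. Calculations used Python 3.11.15, pandas 2.3.3 and NumPy 2.4.6.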

Additional observations from a re-analysis of the deposited data

Results flagged for a closer look

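For 12 members both arrays of testis over SVF lay on one side of 0 and both arrays of epididymis over SVF on the other, a pattern shown by 15.6% of all named genes. The difference between the 2 effects was not tested, and both share the SVF sample. The arrays that set epididymis against testis directly are separate hybridisations, and their mean ratios of epididymis over testis follow. Of the 12, Gdf9 (-3.32 ± 0.84) was the one past 2-fold in all 3 comparisons. Smad3 (2.30 ± 0.06) was past it for testis over SVF and epididymis over testis, and Bmp3 (2.69 ± 1.49) for both comparisons with epididymis. Direct ratios past 2-fold on both arrays were also seen for Acvr1c (1.84 ± 0.08), Inhbb (1.75 ± 0.03), Bmp7 (1.61 ± 0.38) and Acvr1 (1.45 ± 0.07). The others were within 2-fold on at least 1 array, with Gdf6 at -1.18 ± 0.54, Nog at 1.13 ± 0.42, Smad4 at 0.88 ± 0.23, Inhbe at 0.76 ± 0.90 and Inhba at 0.26 ± 0.43.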

How the results depend on the processing

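Of the 43 member ratios that met the rule, 42 met it after median centring, which lost Smad1 (1.31), and 42 on the loop estimate, which lost Bmpr1b (0.85, both epididymis over SVF). All 43 met it without the 58 probes at least 2-fold toward 1 dye on all arrays. Leaving out an array, the mean alone and natural logarithms cannot lose a ratio that passed on both arrays, so they bear only on the counts. The probe mattered more. With the lower of 2 probe ratios, which for negative ratios is the larger in size, Bmpr2 was lost (1.10, epididymis over testis). With the ratio smallest in size 38 remained: Bmpr2 was lost again, Tgfbr2 stood at 0.0085 for testis over SVF and 0.0666 for epididymis over SVF, and Tgfbr3 at -0.68 and 0.37, so 3 signs turned. The settings on dye-biased probes and on the largest and smallest probe ratio were chosen after seeing the data. At 4-fold on both arrays 17 ratios (39.5%) remained, with members numbering 2 toward testis and 6 toward SVF, 0 toward epididymis and 4 toward SVF, and 2 toward epididymis and 3 toward testis. Other pathway genes then numbered 3 and 12, 2 and 8, and 7 and 3, in the order of the comparisons and with the first-named tissue first. On the mean alone, 8 members were higher in epididymis than in SVF, 14 higher in epididymis than in testis and 6 higher in testis than in epididymis. Read as natural logarithms, 9 members were higher in epididymis than in SVF and 6 in testis than in epididymis, and of other pathway genes 7 in epididymis than in SVF and 10 in testis than in epididymis. The loop gave 13 members higher in epididymis than in testis and 10 other pathway genes higher in testis than in SVF. The largest probe ratio gave 7 other pathway genes higher in epididymis than in SVF. With 1 array of a pair left out, members higher in testis than in SVF numbered 4 to 7 and in SVF 16 to 24. Against SVF, 7 to 13 were higher in epididymis and 11 to 14 in SVF, and between epididymis and testis 17 to 18 were higher in epididymis and 4 to 9 in testis. Other pathway genes then numbered 8 to 10 in testis and 29 in SVF, 5 to 7 in epididymis and 16 to 21 in SVF, and 21 in epididymis and 9 to 11 in testis. Counts therefore rest on asking both arrays to pass. The setting restricted to genes measured on all 6 arrays equals the main one. No paired analysis was possible because each tissue is 1 RNA sample and no test was made.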
